A study of Setaria viridis with 22 samples.

Results

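At 10 days after sowing (DAS), inflorescences of the *spp1* mutant were compared with those of A10.1, the wild-type accession of *Setaria viridis* (green millet). The comparison used the 4 *spp1* and the 4 A10.1 libraries of this stage, which are 8 of 22 RNA-seq libraries collected at 10, 12, and 14 DAS. The *sparse panicle1* mutant, in the A10.1 background, carries a lesion in *SPP1*, which encodes an AUX1-type auxin influx carrier. Each library came from a pool of hand-dissected inflorescence primordia of chamber-grown seedlings, so it averages over many plants and over all cell types of the primordium. In such bulk tissue, fewer cells of a type and less RNA per cell cannot be told apart.

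Auxin enters cells partly through AUX1-type carriers and leaves them through PIN carriers. Inside the nucleus, TIR1-type F-box receptors mark AUX/IAA repressors for destruction, and this frees the auxin response factors. Local auxin maxima at the flanks of the inflorescence meristem mark where branch meristems will form, and in grasses this places primary branches, then higher order branches, and finally spikelets and bristles. At 10 DAS the inflorescence has only begun this program, and the question addressed was how far the transcriptome of the mutant already differed.

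The 8 libraries held 14.5 M to 19.9 M mapped first reads in *spp1* and 15.8 M to 24.0 M in A10.1. Abundance was given as FPKM (fragments per kilobase of transcript, scaled to the mapped fragments of the library), and 17937 of 35214 transcripts had a mean of at least 1 FPKM over the 8 libraries and were tested. A log2 fold change here is *spp1* over A10.1 on the scale of log2(FPKM + 1), which understates changes of low genes. An adjusted p below 0.05, by limma with Benjamini-Hochberg adjustment over all 17937 genes, was the threshold. Library profiles were as alike between genotypes (median Pearson correlation across genes 0.982, 16 pairs) as within *spp1* (0.982, 6 pairs) and within A10.1 (0.982, 6 pairs). Replicate 4 of A10.1 lay farthest out on the first principal component, which held 30.9% of the variance and did not separate the genotypes. Markers of the inflorescence were present in both genotypes, since all 5 meristem markers were above 0 in every library and summed to 181 to 265 FPKM in *spp1* and to 171 to 269 FPKM in A10.1. Of 4 branch and boundary markers, 3 were above 0 in all 8 libraries, and the 4 summed to 12.6 to 20.1 FPKM in *spp1* and to 18.1 to 27.7 FPKM in A10.1 (median log2 fold change -0.32). The 2 floral markers summed to 15.3 to 32.5 FPKM in *spp1* and to 21.5 to 33.1 FPKM in A10.1, nearly all of it from the AP1-like MADS-box gene Sevir.2G006400, while the SEPALLATA-type gene Sevir.4G060800 was at or below 0.15 FPKM in each library. Leaf markers, 27 genes described as photosynthesis components, summed to 5220 to 8850 FPKM in *spp1* and to 6960 to 8090 FPKM in A10.1, and the part of any of these markers in the results was not tested. The second index sequences of the libraries were not shared between the genotypes (2 in each genotype at 10 DAS, 0 in common), so index set and genotype cannot be told apart.

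*SPP1* itself (Sevir.5G392400) was transcribed in the mutant. Its level was 20.9, 22.3, 16.8, and 29.9 FPKM in *spp1*, against 38.1, 26.0, 24.3, and 21.2 FPKM in A10.1. The ranges of the genotypes overlapped, and the highest *spp1* library exceeded 3 of the A10.1 libraries. The means were 22.5 ± 5.49 FPKM in *spp1* and 27.4 ± 7.43 FPKM in A10.1 (SD, n = 4 each), a log2 fold change of -0.27 with a 95% interval of -0.72 to 0.18. The difference did not pass the threshold (adjusted p = 0.96 by limma; p = 0.314 by a two-sided exact permutation test of the 8 values). The transcript level is thus no check of which libraries are mutant. The log2 fold change of *SPP1* was -0.54 at 12 DAS and -0.65 at 14 DAS, and the change of the difference from 10 to 14 DAS had an interval of -0.91 to 0.15.

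At 10 DAS 5 genes passed the threshold, which is 0.0279% of the genes tested. The study used another test, Cuffdiff on the mapped reads with q below 0.05, and reported more differing genes at this stage. The 5 are thus the count of this limma test of FPKM values, not of all genes that may differ. The number depended on the fit, as 44 genes (23 higher and 21 lower in *spp1*) passed when all 22 libraries were fitted together and 15 after median ratio scaling of the libraries. A glutathione S-transferase gene, a PWWP domain gene, and an undescribed gene were higher in *spp1* (0.0167%), whereas an RNA polymerase III subunit gene and an uncharacterized gene were lower (0.0112%). The whole interval of the log2 fold change lay above 0 in 451 genes (2.51%) and below 0 in 295 genes (1.64%). None of the 5 is on the lists of auxin or branching genes described below. At an unadjusted p of 0.05, 746 genes (4.16%) passed. With 4 libraries against 4, the smallest two-sided exact permutation p for a single gene is 0.0286, which every gene without overlap between the groups has (465 genes, 2.59%).

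**Figure D1:**
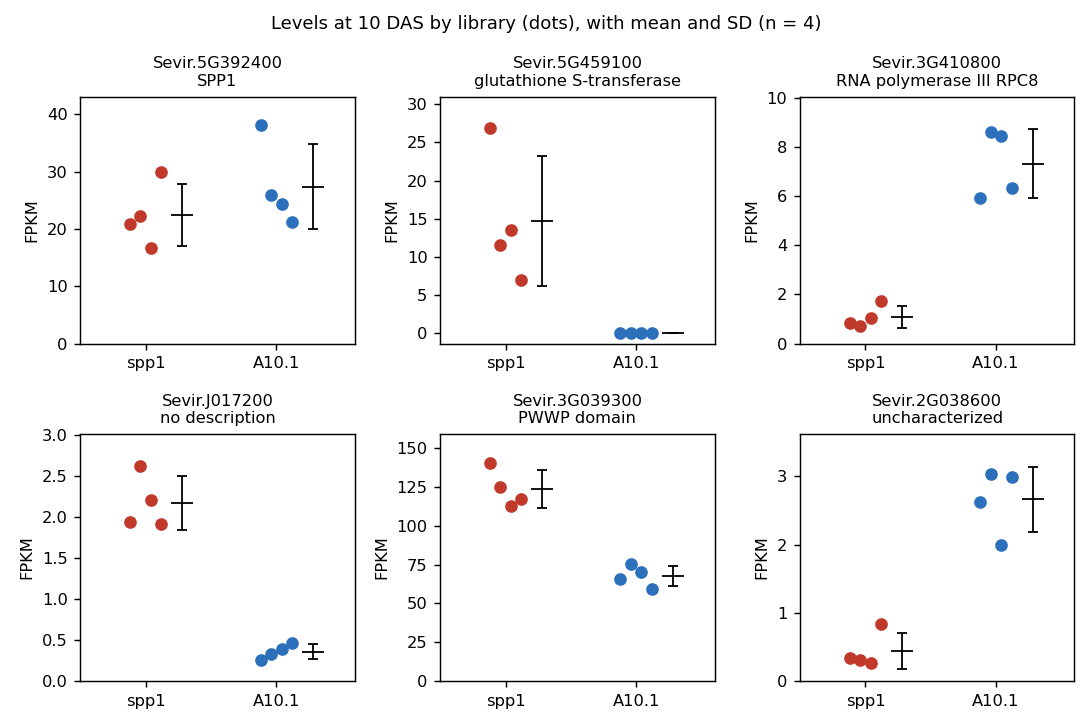
FPKM of *SPP1* and of the 5 genes past the threshold at 10 DAS, with *spp1* on the left and A10.1 on the right of each panel; dots are libraries, and the bar and whiskers are the mean and SD (n = 4). The *SPP1* values overlap between the genotypes, and those of the other 5 genes do not.

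The largest difference was that of Sevir.5G459100, described as a tau class glutathione S-transferase like Arabidopsis GSTU8. Enzymes of this class conjugate glutathione to small molecules in detoxification and stress responses. The gene was at 26.8, 11.6, 13.5, and 7.04 FPKM in *spp1* and was listed at 0 in all 4 A10.1 libraries. The groups did not overlap, and with A10.1 listed at 0 no ratio is given. On the log2(FPKM + 1) scale the difference was 3.83 (interval 3.14 to 4.51, adjusted p = 0.00468 by limma). At 12 DAS it stood at 7.0 to 14.4 FPKM in *spp1* and at 0 to 0.18 FPKM in A10.1, and at 14 DAS at 6.72 to 20.3 FPKM in *spp1* and at 0 again in A10.1. The difference was thus present at all 3 stages.

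Sevir.3G410800 fell in *spp1*. It is described as the RPC8-like subunit of RNA polymerase III, the polymerase that transcribes tRNA and 5S rRNA genes. Its levels were 0.85, 0.73, 1.05, and 1.72 FPKM in *spp1*, against 5.91, 8.63, 8.44, and 6.34 FPKM in A10.1. Every *spp1* library lay far below the lowest A10.1 library, and the mean FPKM in *spp1* was 0.148 times that of A10.1. The log2 fold change was -2.0 (interval -2.39 to -1.62, adjusted p = 0.00468 by limma). It was -1.45 at 12 DAS and -0.84 at 14 DAS, as the mean in *spp1* was 1.09, 1.96, and 4.24 FPKM at the 3 stages and that in A10.1 was 7.33, 7.31, and 8.51 FPKM. The change of the difference from 10 to 14 DAS was 1.16 (interval 0.61 to 1.71), with an unadjusted p of 0.000274 by limma that did not pass after adjustment (adjusted p = 0.117). Its neighbor by number, Sevir.3G410700, is the homolog of maize *BIF2*, a kinase that acts in auxin transport. That gene was at 23.1, 18.1, 16.8, and 35.8 FPKM in *spp1*, against 18.6, 28.5, 18.1, and 12.1 FPKM in A10.1, with overlapping ranges and a log2 fold change of 0.26 (interval -0.35 to 0.88).

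Sevir.J017200, for which the deposited tables give no description, was at 1.94, 2.62, 2.21, and 1.91 FPKM in *spp1*, against 0.25, 0.33, 0.39, and 0.46 FPKM in A10.1. Its mean was 6.07 times higher in *spp1*, from low levels, and the log2 fold change was 1.22 (interval 0.93 to 1.51, adjusted p = 0.0236 by limma). Sevir.3G039300 encodes a protein with a PWWP domain, a module of chromatin proteins that binds modified histones. It was the most abundant of the 5 genes, at 141, 125, 112, and 117 FPKM in *spp1*, against 65.5, 75.0, 70.4, and 59.4 FPKM in A10.1. The mean was 1.83 times higher in *spp1* (log2 fold change 0.87, interval 0.64 to 1.09, adjusted p = 0.0395 by limma). Sevir.2G038600 is uncharacterized, and its best rice match is annotated as an apomixis-related protein. It stood at 0.33, 0.31, 0.27, and 0.84 FPKM in *spp1*, against 2.63, 3.04, 2.0, and 2.99 FPKM in A10.1 (log2 fold change -1.36, interval -1.73 to -0.99, adjusted p = 0.0423 by limma). At 14 DAS its mean was 9.18 FPKM in *spp1* and 36.7 FPKM in A10.1, and the log2 fold change there was -1.88.

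How firmly the 5 calls stood differed between the genes. Leaving out each of the 8 libraries in turn left between 2 and 5 genes past the threshold. Sevir.5G459100 and Sevir.3G410800 passed in all 8 of these fits, Sevir.J017200 in 1 (without replicate 4 of A10.1) and Sevir.2G038600 in 1 (without replicate 4 of *spp1*), and Sevir.3G039300 in 0. The sign of each of the 5 log2 fold changes was the same in every fit. All 5 had the same sign at 12 and at 14 DAS, where 3 and 4 of them passed the threshold in the fit of that stage alone (51 genes, 0.288%, passed at 12 DAS and 341 genes, 1.93%, at 14 DAS).

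**Figure D2:**
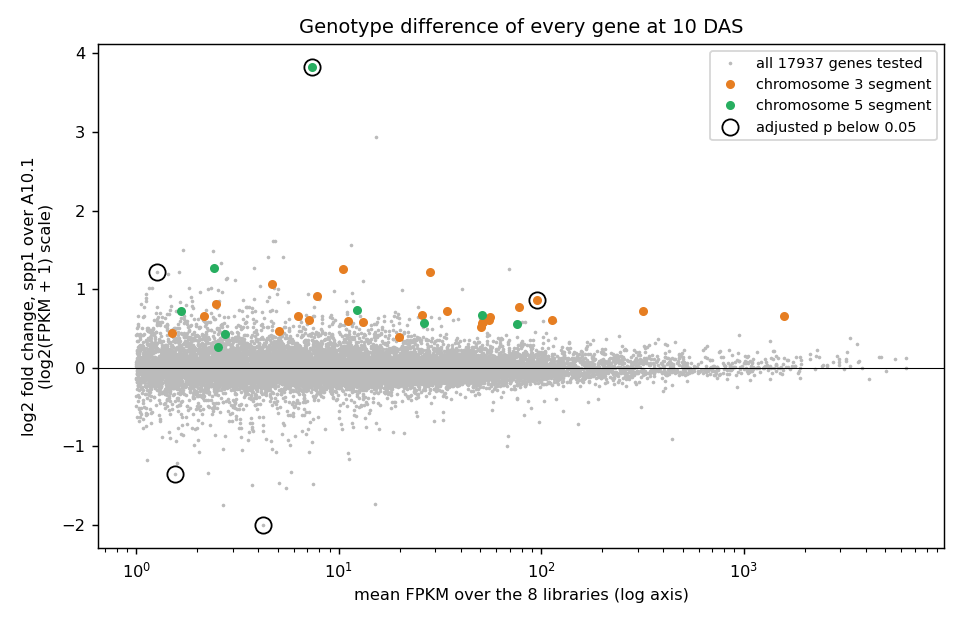
Log2 fold change (*spp1* over A10.1, log2(FPKM + 1) scale) of each of 17937 genes at 10 DAS against its mean FPKM over the 8 libraries, on a log axis. The 5 circled genes passed the threshold; orange and green points are genes of the segments on chromosomes 3 and 5, which lie above 0.

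Several described genes stood close to the threshold. Among the genes that did not pass, the 12 with the smallest p that were lower in *spp1* began with Sevir.7G311000, a trypsin family protein with a PDZ domain. It was at 2.08, 1.86, 1.83, and 3.56 FPKM in *spp1*, against 8.21, 8.69, 6.20, and 11.2 FPKM in A10.1. The groups were well apart, with a log2 fold change of -1.53 (interval -1.96 to -1.09) that narrowly missed the threshold (adjusted p = 0.0505 by limma). Sevir.4G195000, a class III peroxidase like peroxidase 11, had 3.30, 2.56, 2.73, and 2.83 FPKM in *spp1* and 6.84, 6.98, 6.79, and 4.91 FPKM in A10.1 (log2 fold change -0.93, adjusted p = 0.0518 by limma). Sevir.7G284500, a kelch repeat protein like gigaxonin, followed at -1.04 on the log2 scale (limma, adjusted p = 0.055).

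A pair of transcription factor genes was in this lower group. Sevir.5G277100 encodes a MYB protein like RAX2, and RAX genes promote axillary meristem formation in Arabidopsis. It was at 4.84, 3.83, 3.71, and 4.70 FPKM in *spp1* and at 7.81, 6.98, 6.00, and 7.25 FPKM in A10.1. The groups did not overlap (log2 fold change -0.61, interval -0.85 to -0.36, adjusted p = 0.195 by limma), and the log2 fold change was -1.35 at 12 DAS and -1.22 at 14 DAS. Sevir.6G230800, a MADS-box gene described as OsMADS56-like, was at 8.47, 4.66, 7.26, and 5.53 FPKM in *spp1*, against 17.6, 17.0, 20.1, and 9.35 FPKM in A10.1. Its groups did not overlap either, and its log2 fold change was -1.16 (interval -1.68 to -0.64, adjusted p = 0.278 by limma). The group also held 3 genes with RING-type ubiquitin ligase descriptions, Sevir.1G071500 (log2 fold change -0.85), the SINA-like gene Sevir.9G154800 (-0.75), and the ARI1-like gene Sevir.9G163100 (-0.82), and a valine-tRNA ligase gene, Sevir.9G198000 (-0.54). None of these passed the threshold. Among all genes tested, the 4 *spp1* values lay below all 4 A10.1 values in 228 genes (1.27%) and above them in 237 genes (1.32%).

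Of the 12 genes with the smallest p that were higher in *spp1* and did not pass, 9 lay in a run of neighboring genes on chromosome 3. The other 3 were a galacturonosyltransferase gene of pectin synthesis, Sevir.8G007900 (log2 fold change 0.57), an EFR3-like gene, Sevir.1G347500 (0.85), and a methyltransferase gene, Sevir.1G186700 (0.77). Sevir.8G007900 was at 14.0, 14.7, 13.6, and 14.8 FPKM in *spp1* and at 10.3, 9.07, 9.54, and 8.26 FPKM in A10.1, with no overlap (adjusted p = 0.0779 by limma).

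The run on chromosome 3 extends from Sevir.3G037500 to Sevir.3G040500, with the gene numbers taken as the order along the chromosome. Its bounds were drawn on values of these libraries, so its counts are a description. Of 31 genes listed in it, 25 were tested, and all 25 had a log2 fold change above 0, from 0.40 to 1.26, with a median of 0.66 (a ratio of 1.58 on this scale). The median over all genes tested was -0.02. In 16 of the 25 genes the 4 *spp1* values lay above all 4 A10.1 values, against 1.32% of all genes, and 1 gene, the PWWP gene, passed the threshold. The whole interval lay above 0 in 22 of the 25. The 10 tested genes before the run had a median of 0.07, with Sevir.3G036600 at 0.73, and the 10 after it had a median of -0.08. The first gene after the run, Sevir.3G040600, still had a log2 fold change of 0.41, and the next tested one, Sevir.3G040700, had -0.09. The median deviation of the run from its genes' overall means was 0.39, 0.36, 0.30, and 0.19 in the 4 *spp1* libraries and -0.31, -0.38, -0.33, and -0.23 in the 4 A10.1 libraries.

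The functions of the genes in the run were mixed, and among them were components of auxin perception. Sevir.3G038400 is described as a TIR1-like F-box protein, the class of the auxin receptor. It was at 144, 143, 132, and 126 FPKM in *spp1* and at 97.2, 86.6, 81.5, and 90.8 FPKM in A10.1. Every *spp1* library was above every A10.1 library, and the log2 fold change was 0.61 (interval 0.42 to 0.80, adjusted p = 0.0625 by limma). Sevir.3G038900 encodes a cullin-1-like protein, the scaffold of the ubiquitin ligase in which TIR1 works. It was at 59.99, 60.4, 58.9, and 57.2 FPKM in *spp1*, against 39.6, 36.1, 38.8, and 51.1 FPKM in A10.1 (log2 fold change 0.52, interval 0.28 to 0.76, adjusted p = 0.303 by limma). Neither passed the threshold. The 3 auxin F-box receptor genes on the study's own list, which lie elsewhere, had log2 fold changes of -0.17 (Sevir.7G085300), 0.01 (Sevir.8G141100), and 0.15 (Sevir.9G517400).

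Other genes of the run cover cell division, translation, and metabolism. Sevir.3G038800 is the homolog of Arabidopsis TONNEAU2, a phosphatase 2A regulatory subunit needed to place the division plane, and had 65.5, 64.1, 62.4, and 57.2 FPKM in *spp1* against 43.0, 36.7, 41.4, and 44.1 FPKM in A10.1 (log2 fold change 0.58). Sevir.3G038700, a subunit 7-like gene of the anaphase-promoting complex, had a log2 fold change of 0.68. Sevir.3G037800 encodes ribosomal protein S4 of the small subunit and was the most abundant gene of the run, with a mean of 1930 ± 190 FPKM in *spp1* and 1230 ± 223 FPKM in A10.1 (SD, n = 4 each). A sodium/hydrogen exchanger gene like NHX2 (Sevir.3G040100, 0.59), the double-stranded RNA binding protein gene DRB2 (Sevir.3G038500, 0.58), and a RECQ helicase gene (Sevir.3G038300, 0.47) had shifts of similar size, as did a tetrahydrofolate synthase gene of one-carbon metabolism (Sevir.3G038100, 0.64). Shifts of this size were thus seen in genes of low and of high abundance.

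A shorter run on chromosome 5, from Sevir.5G457800 to Sevir.5G459100, ends with the glutathione S-transferase gene. Of its 14 listed genes 9 were tested, and all 9 had a log2 fold change above 0, with a median of 0.67. In 6 of them the 4 *spp1* values lay above all 4 A10.1 values, against 1.32% of all genes. The bounds of this run were likewise drawn on values of these libraries, so its counts are a description too. A pair of calmodulin-like genes stood in this run. Sevir.5G457900 had 52.2, 71.5, 56.2, and 69.1 FPKM in *spp1* and 39.0, 40.7, 26.1, and 52.1 FPKM in A10.1 (log2 fold change 0.67), and Sevir.5G458100 had 14.8, 17.1, 14.6, and 15.4 FPKM in *spp1* and 9.54, 9.22, 6.71, and 10.6 FPKM in A10.1 (0.73). An NB-ARC disease resistance gene, Sevir.5G458200, had a log2 fold change of 0.56, and the OSB4-like organellar DNA binding protein gene Sevir.5G457800 had 0.57. The 10 tested genes before this run had a median of 0.04 and the 10 after it a median of 0.12.

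**Figure D3:**
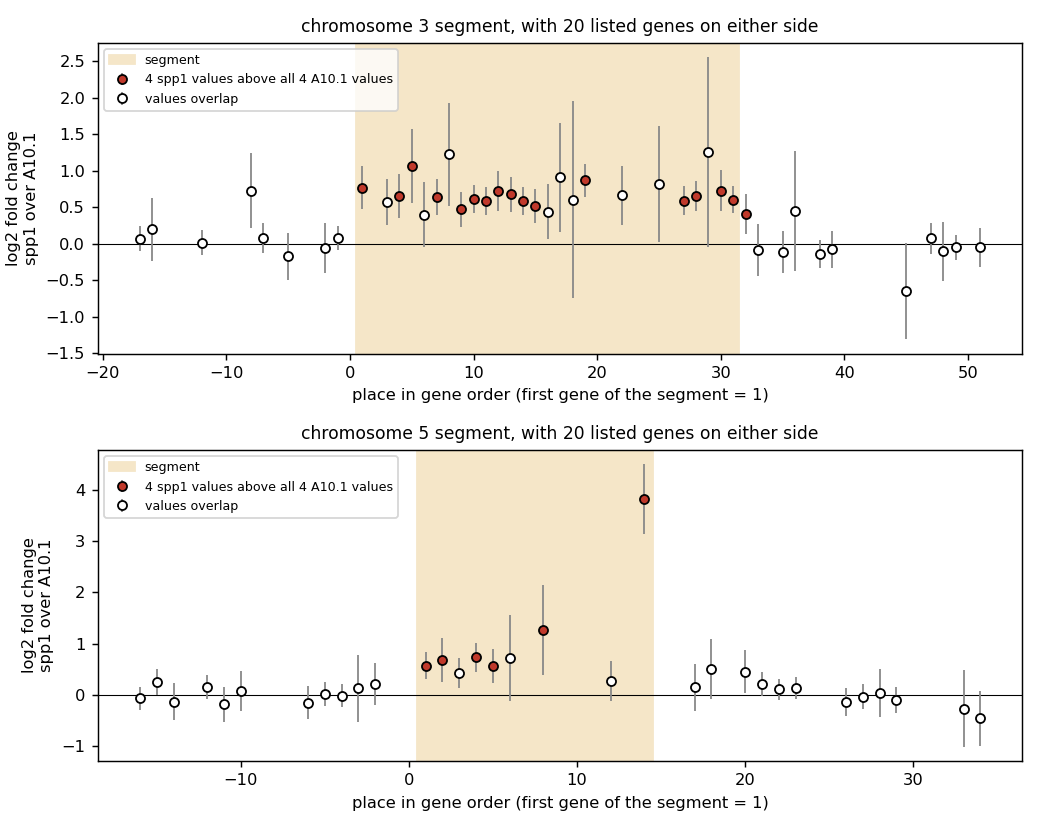
Log2 fold change with its 95% interval for the genes of the runs on chromosome 3 (top) and chromosome 5 (bottom), shaded, and for 20 listed genes on either side, in the order of their gene numbers; genes below 1 FPKM have no point. Filled points are genes whose 4 *spp1* values lie above all 4 A10.1 values; 16 of 25 tested genes are filled inside the chromosome 3 run and 6 of 9 inside the chromosome 5 run.

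Both runs also stood higher in *spp1* at the later stages. The runs were chosen with earlier results of this series known, so the values at these stages are a description too. On chromosome 3 the median log2 fold change was 0.66, 0.52, and 0.54 at 10, 12, and 14 DAS, with 24 of 24 and 22 of 22 tested genes above 0 at the later stages. On chromosome 5 the medians were 0.67, 0.50, and 0.56, with 8 of 8 and 7 of 8 above 0. No gene of either run had a difference that changed significantly from 10 DAS to a later stage (0 genes with an adjusted interaction p below 0.05 by limma). Of all genes, 0% passed for the change to 12 DAS and 0.14% for that to 14 DAS. At such shares no gene would be counted in sets of this size, so nothing is read from it.

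Most genes were at closely similar levels in *spp1* and A10.1. For 17155 genes (95.6%), the whole 95% interval of the log2 fold change lay within 1 in either direction, that is, within a 2-fold difference on this scale. For 13448 genes (75.0%) it lay within 0.5. The median interval reached 0.27 to either side of the estimate. How tightly equality could be stated depended on abundance, since 56.8% of the genes at 1 to 5 FPKM but 88.0% of the 1133 genes at or above 100 FPKM had an interval within 0.5. The central 95% of log2 fold changes ran from -0.32 to 0.41, and 33 genes had a value above 1 and 20 a value below -1.

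**Figure D4:**
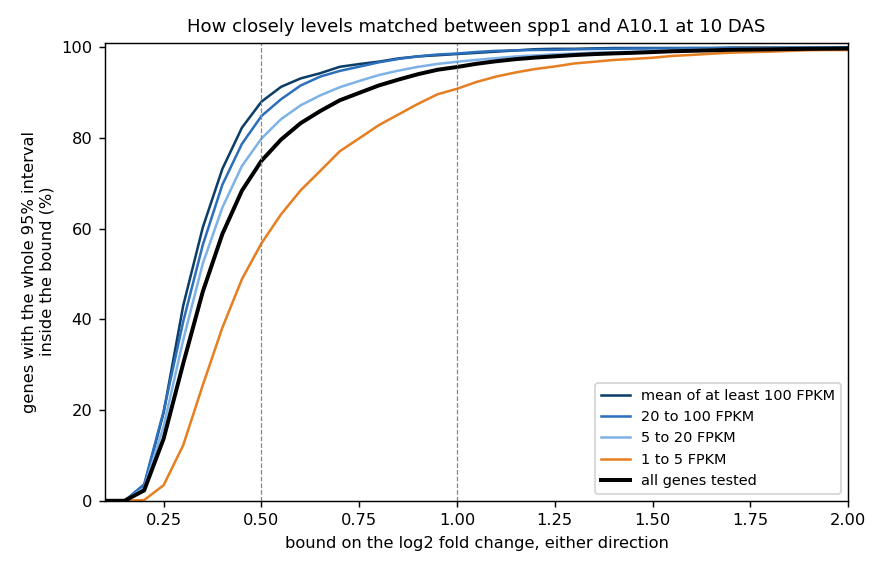
Percent of genes whose whole 95% interval of the log2 fold change lies inside a bound, against the size of the bound, for all genes tested and for 4 classes of mean FPKM. At a bound of 0.5 the share is 75.0% over all genes, and at a bound of 1 it is 95.6%; dashed lines mark these bounds.

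Examples of equal levels were taken from the genes of at least 100 FPKM with the narrowest intervals around 0. Sevir.9G108600, without description, had a mean of 2610 ± 59.2 FPKM in *spp1* and 2570 ± 150 FPKM in A10.1 (SD, n = 4 each), with an interval of -0.15 to 0.18. An AUX/IAA repressor gene, Sevir.3G082700, was nearly as steady, at 340, 342, 339, and 342 FPKM in *spp1*, against 333, 331, 328, and 319 FPKM in A10.1. Its *spp1* values all lay above its A10.1 values, yet the log2 fold change was 0.06 with an interval of -0.09 to 0.20.

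No gene of the auxin pathway lists passed the threshold. Of 84 genes on the lists of auxin synthesis, influx, transport kinase, efflux, receptor, AUX/IAA, and response factor genes, 66 were tested and 0 passed the threshold by limma, against 0.0279% of all genes. Their log2 fold changes ran from -0.39 to 0.45 with a median of 0.04, beside -0.02 over all genes tested, and 4 genes had an unadjusted p below 0.05, against 4.16% of all genes. The interval lay within 1 for 65 of the 66 and within 0.5 for 36, against 95.6% and 75.0% of all genes. These lists were chosen by the study on the same samples and are not independent evidence. They do not hold the TIR1-like gene Sevir.3G038400 (log2 fold change 0.61) or the cullin-1-like gene Sevir.3G038900 (0.52) of the chromosome 3 run, which also did not pass.

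The genotypes did not overlap in 1 of the 2 auxin synthesis genes and in 2 of the 26 tested AUX/IAA genes, against 2.59% of all genes. Nothing is read from counts this small. *SvVT2* (Sevir.5G116300), the homolog of the maize tryptophan aminotransferase gene *vanishing tassel2*, was at 13.6, 13.5, 12.8, and 15.1 FPKM in *spp1*, against 17.5, 19.1, 16.9, and 16.0 FPKM in A10.1. All *spp1* values lay below all A10.1 values. The log2 fold change was -0.32 (interval -0.51 to -0.13), and it did not pass over all genes (adjusted p = 0.621 by limma). *SvSPI1* (Sevir.5G251100), a homolog of the maize flavin monooxygenase gene *sparse inflorescence1*, had overlapping values and a log2 fold change of 0.24 (interval -0.03 to 0.52). The list of auxin synthesis genes had 2 members, and its median was -0.04.

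The other AUX1-type influx carriers differed more between libraries of a genotype than between the genotypes. *SvAUX5* (Sevir.9G475300) was at 92.9, 127, 85.1, and 146 FPKM in *spp1*, against 125, 93.9, 131, and 95.2 FPKM in A10.1 (log2 fold change 0.00, interval -0.42 to 0.42). *SvAUX4* (Sevir.9G295700) had 111, 132, 85.1, and 124 FPKM in *spp1* and 116, 94.99, 122, and 74.9 FPKM in A10.1 (0.16, interval -0.25 to 0.56). By FPKM, which is per transcript length, these 2 genes were the most abundant of the 5 carriers in both genotypes. *SvAUX2* (Sevir.3G228500) averaged 6.89 ± 2.26 FPKM in *spp1* and 6.59 ± 2.66 FPKM in A10.1 (SD, n = 4 each), and *SvAUX3* (Sevir.8G047900), at a mean of 0.21 FPKM in *spp1* and 0.22 FPKM in A10.1, was too low to be tested.

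Among 19 auxin efflux carrier genes, 6 were tested, with log2 fold changes of -0.39 to 0.27. The most abundant, Sevir.7G323600, was at 118, 140, 85.4, and 161 FPKM in *spp1* and at 108, 95.8, 118, and 87.8 FPKM in A10.1, which overlapped (0.27, interval -0.14 to 0.68). Of 30 AUX/IAA repressor genes 26 were tested, 19 of them above 0, with a median of 0.07. They include the homologs of maize *BIF1* (Sevir.5G123100, 0.20) and *BIF4* (Sevir.3G111900, 0.08), in which dominant mutations bar branch initiation in maize. The lowest of the list was the IAA20-like gene Sevir.4G058700, at 1.85, 3.23, 2.89, and 2.25 FPKM in *spp1*, against 4.33, 3.82, 3.75, and 2.72 FPKM in A10.1 (log2 fold change -0.39, interval -0.75 to -0.04), and its groups overlapped. All 24 auxin response factor genes were tested, and 20 had an interval within 0.5, with a median of -0.02.

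Genes that shape inflorescence branching were likewise not past the threshold. Of 17 on the study's list, 15 were tested, and the median log2 fold change was 0.09. The list was chosen with results of these samples known, so it is not independent evidence. It mixes genes that the study reported as lower and as higher in *spp1*. By limma 0 passed and 0 had an unadjusted p below 0.05, against 0.0279% and 4.16% of all genes, shares at which few or none of 15 genes would be counted. The interval lay within 1 for 11 of the 15 and within 0.5 for 4, against 95.6% and 75.0% of all genes.

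The ramosa genes restrict branch outgrowth in maize. *SvRA3* (Sevir.2G407500), a trehalose phosphate phosphatase, was at 2.29, 1.82, 1.16, and 3.24 FPKM in *spp1* and at 2.80, 1.56, 1.84, and 2.23 FPKM in A10.1. The values overlapped fully, with a log2 fold change of -0.02 (interval -0.49 to 0.45). *SvRA2* (Sevir.5G116100), a LOB domain transcription factor, was at 3.71, 4.14, 1.92, and 2.43 FPKM in *spp1* and at 5.61, 6.82, 3.13, and 3.22 FPKM in A10.1 (-0.47, interval -1.04 to 0.09). *SvRA1* (Sevir.2G209800) was listed at 0 in all 8 libraries.

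Regulators of axillary meristems had low and variable levels. *SvBA1* (Sevir.5G374100), the homolog of the maize gene *barren stalk1* that is required for axillary meristems, was at 1.88, 4.15, 0, and 1.26 FPKM in *spp1*, against 2.53, 6.39, 3.47, and 2.19 FPKM in A10.1. Its log2 fold change of -0.87 had the widest interval of the list (-1.88 to 0.14), which reaches beyond a 2-fold difference. *SvBAF1* (Sevir.4G025200), an AT-hook protein gene upstream of *ba1* in maize, had 8.75, 8.0, 8.13, and 13.2 FPKM in *spp1* and 21.3, 26.0, 8.13, and 7.42 FPKM in A10.1, where the libraries themselves fell apart into 2 high and 2 low values (-0.50, interval -1.33 to 0.32). *SvLG1* (Sevir.3G023500), the LIGULELESS1 homolog, was at 3.66 ± 0.609 FPKM in *spp1* and 3.78 ± 1.42 FPKM in A10.1 (SD, n = 4 each).

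Genes that keep meristems indeterminate overlapped between the genotypes. *SvTAW1* (Sevir.9G221800), an ALOG protein gene whose rice homolog delays the switch to spikelets, was at 63.6, 77.6, 49.4, and 74.3 FPKM in *spp1*, against 86.5, 53.3, 47.4, and 59.2 FPKM in A10.1 (0.12, interval -0.32 to 0.56). Its 3 relatives had log2 fold changes of 0.37 (Sevir.7G176000), 0.36 (Sevir.1G244200), and 0.28 (Sevir.4G277900), and none passed. *SvTFL1* (Sevir.8G033800), the CEN-like regulator of meristem fate, had 0.09 and *SvTFL1-like1* (Sevir.1G183200) had 0.05. The highest value of the list was that of the cytokinin response regulator *SvABPH1* (Sevir.7G182100), at 20.8, 18.4, 17.1, and 40.9 FPKM in *spp1* and at 16.7, 10.8, 16.3, and 17.2 FPKM in A10.1 (0.57, interval -0.01 to 1.15), where 1 *spp1* library stood far above the rest.

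**Figure D5:**
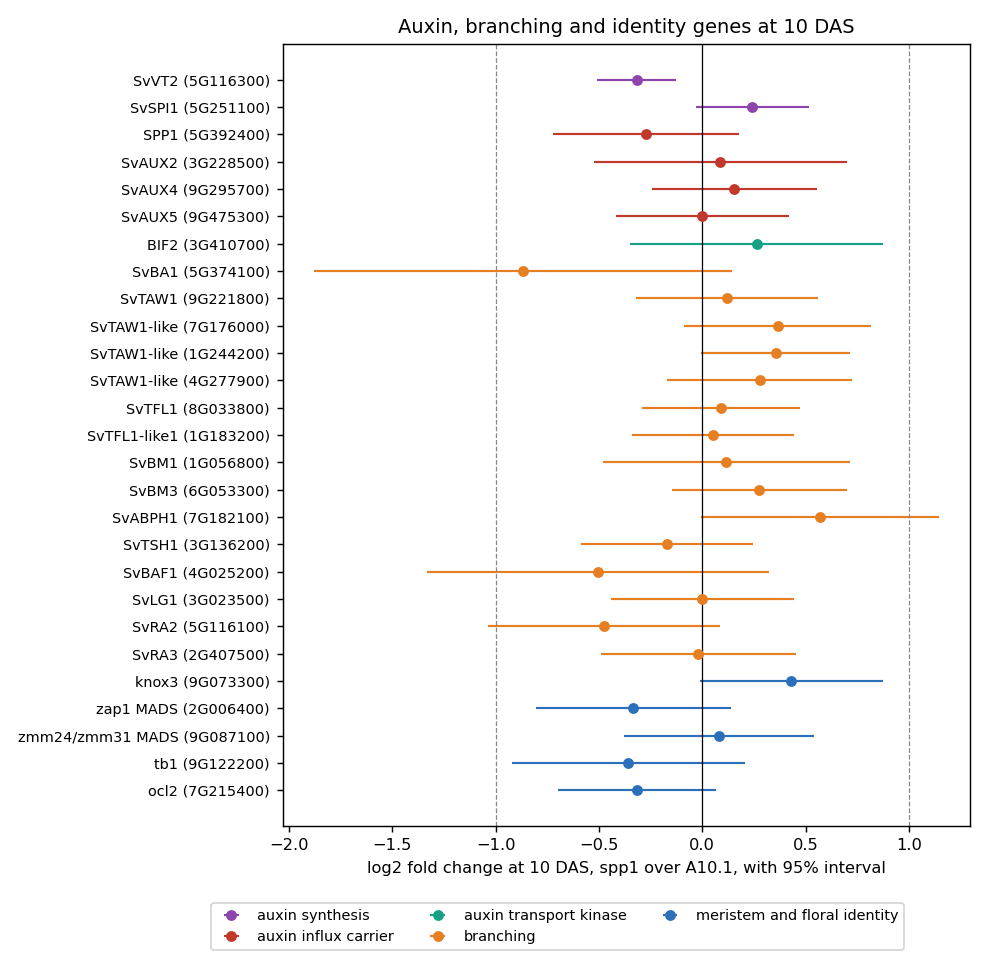
Log2 fold change at 10 DAS (*spp1* over A10.1) with its 95% interval for tested genes of the lists of auxin synthesis, influx carrier, transport kinase, branching, and meristem and floral identity genes; numbers in parentheses are the gene identifiers without their prefix. The interval of *SvVT2* alone excludes 0, and dashed lines mark a log2 fold change of 1 in either direction.

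Meristem and floral identity genes were also listed, and of 10 genes 6 were tested, with a median of -0.16 and 0 past the threshold by limma (0 with an unadjusted p below 0.05), against 0.0279% and 4.16% of all genes, from which nothing is read for so few genes. The AP1-like MADS-box gene Sevir.2G006400 was at 19.5, 20.8, 15.3, and 32.5 FPKM in *spp1*, against 29.8, 33.0, 21.5, and 25.2 FPKM in A10.1 (-0.33, interval -0.81 to 0.14). The *teosinte branched1* homolog Sevir.9G122200, a TCP factor that represses bud outgrowth in maize, had a log2 fold change of -0.36 (interval -0.92 to 0.21), and the *knox3* homolog Sevir.9G073300 had the highest of the list, 0.43 (interval -0.01 to 0.87). A pair of genes below the filter, at low levels, had values that did not overlap between the genotypes. Of the genes tested, 2.59% had no overlap, and the share among genes below the filter was not counted. The homolog of maize *bd1*, Sevir.2G437800, an AP2/ERF factor that gives spikelet meristems their identity in maize, had 1.68, 0.46, 1.18, and 0.56 FPKM in *spp1* and was listed at 0 in all 4 A10.1 libraries. The *lec1* homolog, Sevir.1G308700, an NF-YB gene of embryo identity, was listed at 0 in all 4 *spp1* libraries and had 2.41, 2.59, 1.18, and 1.03 FPKM in A10.1. Neither had a mean of 1 FPKM over the 8 libraries, so neither was tested at 10 DAS.

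Functional descriptions were given for 2952 genes, of which 2684 were tested. These are the genes listed as differing at some stage in the deposited tables, so they are a selected set. The medians of their tested members were 0.02 for 55 ribosomal protein genes, 0.26 for 33 peroxidase or laccase genes, 0.19 for 27 heat shock or DnaJ chaperone genes, -0.07 for 9 histone genes, -0.13 for 40 F-box genes, and -0.20 for 8 aminoacyl-tRNA synthetase genes. They were 0.26 for 9 glutathione S-transferase genes, -0.21 for 8 RNA polymerase subunit genes, -0.03 for 26 NB-ARC disease resistance genes, -0.11 for 12 MADS-box genes, 0.15 for 12 WRKY genes, -0.06 for the 27 leaf markers, and -0.12 for 44 genes matching the word cyclin, most of which are F-box genes. The median over all described and tested genes was -0.04. Among these groups the threshold was passed by 1 of the 9 glutathione S-transferase genes and 1 of the 8 RNA polymerase subunit genes, both named above, against 0.0279% of all genes. Nothing is read about a group from a single gene. Of the 33 peroxidase or laccase genes, which act on phenolics in the cell wall, 31 had a log2 fold change above 0. The same held for 1158 of the 2684 described and tested genes and for 7617 of all 17937 genes tested. The 33 belong to that selected set, so their count is a description. The peroxidase 11-like gene Sevir.4G195000 was the lowest of them at -0.93.

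How the genotype difference changed after 10 DAS was tested in 1 limma fit of all 22 libraries over 17896 genes. From 10 to 12 DAS, 0 genes passed by limma after adjustment (lowest adjusted p = 0.124), and 331 (1.85%) had an unadjusted p below 0.05. From 10 to 14 DAS, 25 genes (0.14%) passed, 22 with a change toward lower and 3 toward higher levels in *spp1*, and 1323 (7.39%) had an unadjusted p below 0.05. Of these 25 genes, 17 were tested at 10 DAS, and all 17 had an interval within 1 at that stage, 10 of them within 0.5. Of all genes tested at 10 DAS, 95.6% and 75.0% had such intervals. The contrast that picked the 25 uses the 10 DAS values, so these counts are a description. None of the 5 genes past the threshold at 10 DAS was among the 25.

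*SvRA3* was the branching gene among the 25. Its mean was 2.13, 7.98, and 42.1 FPKM at the 3 stages in *spp1* and 2.11, 19.1, and 146 FPKM in A10.1. The genotypes were alike at 10 DAS and apart at 14 DAS, and the difference changed by -1.74 from 10 to 14 DAS (interval -2.39 to -1.09, adjusted p = 0.0262 by limma). The *bd1* homolog Sevir.2G437800 changed by -3.24 (interval -4.17 to -2.32, adjusted p = 0.00266 by limma), with a mean of 3.50 FPKM in *spp1* and 19.6 FPKM in A10.1 at 14 DAS. An ERF4-like transcription factor gene, Sevir.5G352700, an auxin-conjugating GH3 gene, Sevir.5G333300, and a TERMINAL EAR1-like gene, Sevir.2G295600, a relative of a maize regulator of leaf initiation, changed by -0.88, -1.64, and -0.69. A laccase gene, Sevir.8G221400, changed by 0.81. For Sevir.5G352700 the log2 fold change was 0.19 at 10 DAS (interval -0.06 to 0.43) and -0.69 at 14 DAS.

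For the other branching genes tested for it, the change from 10 to 14 DAS was not past the threshold. *SvRA1* was too low over the 22 libraries to be tested for it, and at 14 DAS its mean was 0.987 FPKM in *spp1* and 3.21 FPKM in A10.1. For *SvRA2* the log2 fold change was -0.47, -1.14, and -1.08 at the 3 stages, and its change from 10 to 14 DAS was -0.61 (adjusted p = 0.668 by limma). *SvLG1* had 0.00, -1.22, and -0.61, and *SvTFL1-like1* had 0.05, 0.32, and 0.89 (adjusted p = 0.679 and 0.382 for the change by limma). *SvBA1* had -0.87, -1.5, and -1.18.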

How the data were processed

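Inflorescence RNA was sequenced as strand-specific paired-end libraries from biological replicates, each a pool of primordia. Per the labels and the study's methods, the authors trimmed reads (Trimmomatic, FastQC), mapped them to the first version of the S. viridis genome (TopHat2, Bowtie2), and computed the deposited FPKM values with Cuffdiff. Tool versions were not given in the sources used here. The deposited library table also gives mapped reads and the percent of reads mapped, as the authors counted them, which was 89.02% to 91.35% in the *spp1* and 87.48% to 93.07% in the A10.1 libraries at 10 DAS. Read counts per gene were not used here, so no count model was run. The deposited lists of differing genes hold pooled means, fold changes, and p-values, which were not used, and their gene descriptions were.

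Log2(FPKM + 1) was tested for the 8 libraries of 10 DAS with limma 3.58.1 (R 4.3.3; empirical Bayes with a trend, Benjamini-Hochberg adjustment, 95% intervals), after a filter at a mean of 1 FPKM. The change of the difference between stages came from 1 fit of all 22 libraries. The code was tested on simulated data. Single values were also compared with exact permutation tests. Alternatives were a pseudocount of 0.1, no filter, a filter at 5 FPKM, median ratio scaling, no trend, a fit of all libraries, a replicate block, and leaving out each library. Genes were named by rule: those past the threshold, the 12 with the smallest p among the others in each direction, the 10 with the largest change in each direction among those that do not overlap, the 10 of at least 100 FPKM with the narrowest intervals around 0, and genes of the lists and runs. A few genes from the tests of later stages were named after their values were seen. The lists and runs were chosen with earlier results of these data known. Gene names come from the study and the deposited descriptions, as 0 identifiers matched RefSeq. The values of 1 listed gene are not reported here.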

Additional observations from a re-analysis of the deposited data

Results flagged for a closer look

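In 11 of 202 groups of 4 libraries, 1 library lay far from the other 3, by the gap to its nearest neighbor as a share of the range of the 4, given here as a ratio. Chance gives about 1 in 20 such groups. In *spp1*, these were replicate 4 for Sevir.2G038600 (0.84 FPKM, the others at most 0.33, ratio 0.875), replicate 1 for Sevir.8G074900 (listed at 0, the others at least 1.08, ratio 0.898), and replicate 3 for Sevir.1G347500 (ratio 0.857), Sevir.9G163100 (0.856), Sevir.3G037900 (0.899), and Sevir.3G040700 (0.96). In A10.1, these were replicate 4 for Sevir.4G195000 (4.91 FPKM, the others at least 6.79, ratio 0.92) and Sevir.7G046500 (listed at 0, the others at least 2.75, ratio 0.867), replicate 3 for Sevir.1G186700 (ratio 0.85), replicate 2 for *SvABPH1*, Sevir.7G182100 (0.877), and replicate 1 for Sevir.8G141100 (0.861).

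The difference between *spp1* and A10.1 changed from 10 to 14 DAS in 25 genes by the limma interaction test. Among them were *SvRA3*, Sevir.2G407500, with a change of -1.739 on the log2(FPKM + 1) scale, and the *bd1* homolog Sevir.2G437800, with -3.244.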

How the results depend on the processing

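The count of 5 genes past the threshold at 10 DAS (3 higher and 2 lower in *spp1*) depended on the fit. It was 44 in 1 fit of all 22 libraries (23 higher, 21 lower), 15 without a filter (8 higher, 7 lower), 15 after median ratio scaling (10 higher, 5 lower), 9 without the trend (5 lower), and 1 among genes of at least 5 FPKM (1 higher, 0 lower). With a pseudocount of 0.1 it was 4, with 1 lower. Leaving out 1 library gave 2 to 5 genes, 1 to 3 of them higher and 1 to 3 lower. Leaving out both libraries numbered 4, chosen after seeing the data because replicate 4 of A10.1 stood apart, gave 4 genes, 1 of them higher. Of the 17937 genes tested, 44 passed in the fit of all 22 libraries and 15 after median ratio scaling, and 13 and 7 of these lay in the chromosome 3 run. The bounds of that run were drawn on values of these libraries, so these counts are a description. The cause of the changes in count was not tested.

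With the replicate number as a block, 2 genes passed (1 higher, 1 lower), and 1 of the 5, Sevir.5G459100, was among them. Same-numbered libraries deviated together with correlations of 0.24, -0.06, 0.01, and 0.18, so the numbers were not taken as pairs, and not every library correlated best with its own number. The count of genes listed at 0 did rise with the number in both genotypes, from 11062 to 12120 in *spp1* and from 11075 to 12302 in A10.1. Whether the numbers mark shared collections is not given.

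The count of genes with an interval within 1 lay between 16826 and 17136 when 1 library was left out, and that within 0.5 between 11967 and 13759. With a pseudocount of 0.1 these counts were 16257 and 11623 of 17937 genes, lower than with any library left out. Without a filter, the count within 0.5 was 20230, as more genes were tested. For the change from 10 to 12 DAS, 1 gene passed without the trend, 4 without a filter, and 0 to 1 when 1 library was left out. For the change from 10 to 14 DAS, 25 genes became 9 at 5 FPKM, 8 with a pseudocount of 0.1, 16 after median ratio scaling, and 7 to 35 when 1 library was left out. The log2 fold change of *SPP1* ran from -0.41 to -0.10 when 1 library was left out and never passed. Among the named and listed genes followed through the settings, 0 of the 56 whose interval excluded 0 took the other sign in any setting, and 27 of the 55 whose interval crossed 0 did so in at least 1. Without read counts, the counting error of genes near 1 FPKM is unknown.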

Other observations

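Beyond the genes near the threshold, several genes without a description had large differences with no overlap between the genotypes at 10 DAS, and none passed the threshold by limma. Sevir.5G292200 was at 10.7, 24.6, 21.4, and 14.2 FPKM in *spp1*, against 3.15, 4.69, 6.10, and 7.01 FPKM in A10.1 (log2 fold change 1.56, interval 0.95 to 2.17, adjusted p = 0.162 by limma). Its log2 fold change was 0.80 at 12 DAS and -0.91 at 14 DAS, where both genotypes had libraries listed at 0 at both stages. The change of the difference from 10 DAS had wide intervals that crossed 0, -3.94 to 2.41 at 12 DAS and -5.41 to 0.47 at 14 DAS. Sevir.1G190100 was at 10.4, 7.04, 8.69, and 5.96 FPKM in *spp1* and at 1.36, 2.95, 1.53, and 4.27 FPKM in A10.1 (log2 fold change 1.41 at 10 DAS, and 0.92 and 0.04 at 12 and 14 DAS). In the other direction, Sevir.2G237000, described as like the nuclear pore protein Nup214, was at 5.21, 3.02, 4.55, and 5.55 FPKM in *spp1* and at 7.17, 10.0, 6.76, and 12.6 FPKM in A10.1 (log2 fold change -0.85, interval -1.31 to -0.38).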
